A study of Mus musculus with 4 samples.

Results

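The regions described here were 1706 stretches of intronic chromatin that carried an ATAC-seq peak in each d4 library but in no d2 library, out of 40910 regions in all. They were chosen by the peak calls themselves. Peaks of the 4 libraries that overlapped by 1 bp or more were merged into union regions. A region was kept when both d4 lists and no d2 list had a peak there and it lay more than 1000 bp from any transcript start, overlapped no exon and lay in a gene body (GENCODE mouse release 21, mm10). They are called intronic gained regions below. Gained means called at d4 and not at d2. Whether signal below the calling threshold was present at d2 was not measured by peak lists.

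Chromatin accessibility was assayed with ATAC-seq, in which a transposase cuts and tags open DNA, in the mouse embryonic stem cell (mESC) line ES-E14TG2a, of WT genotype. All 4 libraries came from this single line, taken through a cardiogenic protocol as embryoid bodies in serum-free medium with N2 and B27. The 2 d4 libraries were made from cells that had been dissociated at d2 and reaggregated with Activin A, BMP4 and VEGF, and the 2 d2 libraries from cells that had not yet received these factors. The replicates came from separate differentiation experiments. No sort of the cells is described, so the cultures can hold several cell types, and more cells with an open region cannot be told apart from more open DNA per cell. By flow cytometry, the paper reports that cells with the endothelial protein VE-cadherin were undetectable at d2 and a minority at d4. No marker was measured as RNA here.

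Introns of developmental genes often hold enhancers, short stretches of DNA that transcription factors open and occupy and that act on the host gene or on another gene. GATA factors are zinc finger proteins that recognise the letters GATA and can bind DNA in closed chromatin. They act in the heart, blood and endoderm, and in blood and endothelial progenitors they work with TAL1, a basic helix-loop-helix protein that binds an E-box part next to the GATA letters. ETS factors such as ERG and ETV2 act in endothelial cells, TEAD factors are the DNA-binding partners of YAP and TAZ, AP-1 is made of JUN and FOS proteins, and forkhead factors open chromatin in endoderm and mesoderm.

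The study listed a larger set of regions that were more accessible at d4 and mapped to endothelial marker genes from published single-cell data. Several intronic gained regions named below lie within regions of that set. Among them are those of Arhgap31, Erg, Calcrl, Adgrf5, Tspan18, Sptbn1, Vav3, Col4a1, Hapln1, Nid1 and Lcp1. The study also put forward for testing an element at each of 6 endothelial genes. Of these genes 2, Flt1 and Notch1, held an intronic gained region. The paper reports that a dCas9 fusion with the demethylase LSD1, sent to each element, lowered expression of every target gene except Pecam1. It also reports that deleting the Notch1 and Pecam1 elements lowered expression of both genes. For Pecam1 it speculates that the stretch may not be a regulatory element. Flt1 encodes VEGF receptor 1, which binds VEGF and restrains its signal, and Notch1 a receptor that sets arterial fate. The Flt1 region (mm10, chr5:147657939-147658144, intron 10) reached 9.87-fold enrichment in d4 replicate 1, and 7.90 in replicate 2. Fold enrichment is the pileup at the summit over the local background, as the peak caller wrote it. The Notch1 region (chr2:26475118-26475277, intron 15) was weaker, at 4.90 and 5.15. Both are printed whole on the plus strand, with capitals for every match to the GATA, ETS, TEAD, AP-1 or forkhead motif on either strand and for the outer letters of the E-box-GATA composite, all of which are spelled out with the motif results.
Flt1: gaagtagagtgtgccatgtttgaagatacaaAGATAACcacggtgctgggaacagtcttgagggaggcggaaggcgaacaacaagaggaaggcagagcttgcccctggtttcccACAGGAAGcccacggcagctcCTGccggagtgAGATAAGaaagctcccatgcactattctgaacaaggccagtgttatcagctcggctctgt
Notch1: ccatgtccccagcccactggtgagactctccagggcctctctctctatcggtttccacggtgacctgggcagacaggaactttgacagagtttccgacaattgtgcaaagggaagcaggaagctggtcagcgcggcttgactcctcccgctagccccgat
The Flt1 stretch held 2 GATA matches, of which 1 lay within 100 bp of the summit, an ETS match and the E-box-GATA composite, whereas the Notch1 stretch held none of these letters.

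Further stretches show how the motifs lay in the strongest regions of each kind. The region with the highest lower fold enrichment of both d4 libraries was in Cr1l (chr1:195100720-195101205), which encodes a membrane regulator of complement. A whole chromosome was left out when the strongest regions with the composite or with pairs of motifs were picked. These rankings thus hold among the other chromosomes only. There, the strongest region with the E-box-GATA composite was also the strongest with both GATA and ETS, and lay in the noncoding gene AC122763.1 (chr19:51910759-51911029). The strongest with GATA and TEAD was in the noncoding gene Gm32357 (chr16:86252671-86253051), that with GATA and AP-1 in Cobll1 (chr2:65191434-65191747), and that with GATA and forkhead in Tspan12 (chr6:21818270-21818840), a tetraspanin that aids Norrin signalling in retinal vessels. A region in Sgip1 (chr4:102908056-102908310) held all 5 kinds of motif, counting GATA, ETS, TEAD, AP-1 and forkhead. The Cr1l and Sgip1 stretches were picked after their values were seen. Regions of up to 300 bases are printed whole, longer ones as the 201 bases around the summit, all on the plus strand of mm10. These windows are chr1:195100791-195100991 for Cr1l, chr16:86252706-86252906 for Gm32357, chr2:65191562-65191762 for Cobll1 and chr6:21818465-21818665 for Tspan12.
Cr1l: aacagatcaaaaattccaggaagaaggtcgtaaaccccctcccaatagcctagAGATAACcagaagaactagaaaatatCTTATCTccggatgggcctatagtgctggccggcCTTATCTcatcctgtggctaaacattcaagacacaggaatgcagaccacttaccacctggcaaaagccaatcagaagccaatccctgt
AC122763.1: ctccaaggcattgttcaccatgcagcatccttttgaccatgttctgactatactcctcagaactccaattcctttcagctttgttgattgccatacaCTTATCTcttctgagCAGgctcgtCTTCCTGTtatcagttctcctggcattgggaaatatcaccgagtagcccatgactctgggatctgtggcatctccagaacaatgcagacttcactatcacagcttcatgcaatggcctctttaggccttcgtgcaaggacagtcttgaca
Gm32357: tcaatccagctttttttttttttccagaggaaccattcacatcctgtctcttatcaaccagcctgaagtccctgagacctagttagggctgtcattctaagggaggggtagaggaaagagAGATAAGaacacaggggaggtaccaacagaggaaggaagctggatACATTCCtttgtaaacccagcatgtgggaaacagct
Cobll1: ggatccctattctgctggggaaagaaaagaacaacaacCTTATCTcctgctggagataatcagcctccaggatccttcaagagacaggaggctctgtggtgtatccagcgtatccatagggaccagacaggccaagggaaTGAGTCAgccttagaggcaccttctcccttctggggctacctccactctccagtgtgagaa
Tspan12: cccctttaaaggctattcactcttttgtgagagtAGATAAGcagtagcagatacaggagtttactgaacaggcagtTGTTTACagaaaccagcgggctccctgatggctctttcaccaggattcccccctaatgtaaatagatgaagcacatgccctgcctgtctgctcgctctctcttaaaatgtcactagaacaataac
Sgip1: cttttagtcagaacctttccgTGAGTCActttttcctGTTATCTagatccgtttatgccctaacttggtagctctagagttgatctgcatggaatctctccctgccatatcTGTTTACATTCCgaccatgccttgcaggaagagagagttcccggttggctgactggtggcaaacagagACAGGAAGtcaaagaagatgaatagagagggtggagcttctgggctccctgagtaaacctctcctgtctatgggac
The Cr1l stretch carried 3 GATA matches. In the Sgip1 stretch the forkhead and TEAD matches overlapped in a single capital run.

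The peak calls that chose the regions are given as a description. The share of all union regions that were gained was 9.93%, and the share of intronic distal union regions that were gained was 17.5% (1706 of 9739). A further 1614 intronic distal regions were lost, called in both d2 libraries only, and 544 were called in all 4. Just outside the rule, 1342 intronic regions were called in d4 replicate 1 only, 996 in d4 replicate 2 only, and 195 in both d4 libraries and a single d2 library. The count depended on the calling threshold and on each d4 library. It was 772 at −log10 q of at least 10, 1026 when only the top 15000 peaks per library were used, 2718 without d4 replicate 1 and 3074 without d4 replicate 2, since a peak in the remaining d4 library then sufficed. The gained share of intronic distal regions was then 18.7%, 21.8%, 32.2% and 35.0%, in that order. Library depth, solved from the peak lists as the genome-wide background pileup, was 0.755 and 0.744 for the d4 pair and 0.568 and 0.483 for the d2 pair. Both d4 libraries thus had more background than either d2 library, and the part of depth in the count was not tested.

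Both d4 libraries gave similar values for the gained regions. Fold enrichment had a median of 7.85 (lowest 4.06, highest 21.6) in d4 replicate 1 and 7.61 (lowest 4.12, highest 18.6) in d4 replicate 2. The median summit pileup was 16 and 15 fragments or reads. The log2 ratio of d4 replicate 1 over replicate 2 had quartiles of -0.18 and 0.25, and the summits of both libraries lay a median of 42 bp apart. Regions in a single d4 library were weaker, with medians of 6.26 in replicate 1 and 5.98 in replicate 2, and regions called in all 4 libraries were stronger, at 8.64 and 8.41. The weakest 5 members had a lower −log10 q between 3.08 and 3.21, just above the calling limit. The 5 members nearest to a start lay 1013 to 1061 bp from it, and the 5 gained regions just inside the limit of 1000 bp lay 955 to 994 bp from it.

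**Figure D1:**
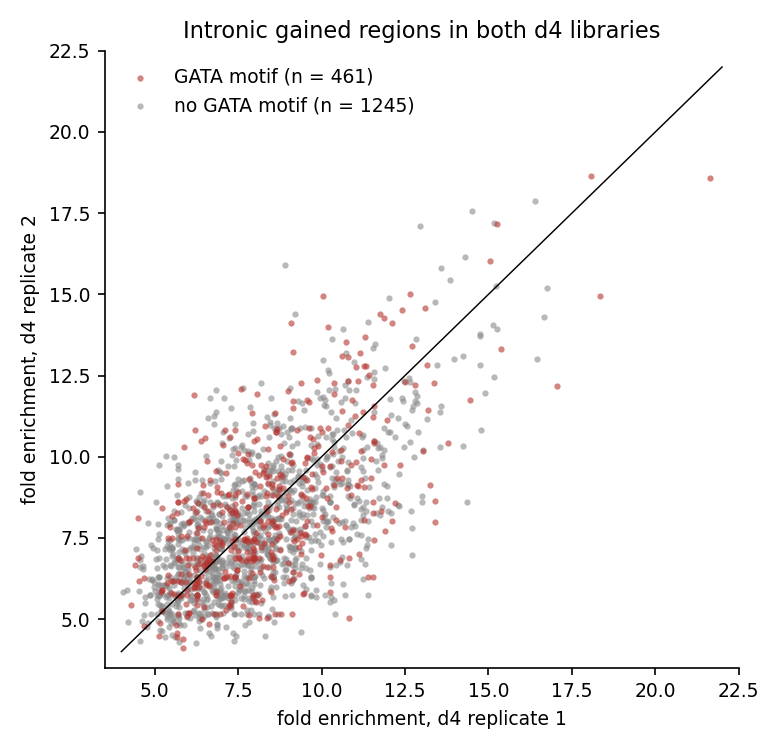
Fold enrichment of each intronic gained region in d4 replicate 1 (x axis) and d4 replicate 2 (y axis), with regions that hold the GATA motif in red (461) and the others in grey (1245), and the line of equality in black. Values lie between 4.06 and 21.6 in replicate 1 and between 4.12 and 18.6 in replicate 2, and red points occur over the whole range.

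Of the 10 strongest regions, 5 held a GATA match. The Cr1l region had a fold enrichment of 21.6 and 18.6 in d4 replicates 1 and 2. The Tmem135 region (chr7:89367680-89368202, 2 GATA matches) had 18.1 and 18.6. Tmem135 encodes a membrane protein of peroxisomes and mitochondria. The Tdrd3 region (chr14:87478643-87478937) had 16.4 and 17.9 and none of the 5 motifs GATA, ETS, TEAD, AP-1 and forkhead, and Tdrd3 encodes a reader of methylated arginine. The Gm32357 region had 15.3 and 17.2, and the Tmem132c region (chr5:127406246-127406627), with a forkhead match, 15.2 and 15.2. Next were Lrrc4c, which encodes a netrin-G ligand, at 16.7 and 15.2, and Unc5c, a netrin receptor gene, at 15.2 and 17.2, both also with none of these 5. The Macrod2 region had 15.0 and 16.0 and a GATA match. The interferon-inducible gene Ifi202b had 18.4 and 14.9 with a GATA and a TEAD match, and Fat3, an atypical cadherin gene, had 14.5 and 17.6 with none of the 5. Of the 10, Tdrd3, Lrrc4c, Unc5c and Fat3 thus held none of these 5 motifs, although Tdrd3 held an E-box and a T-box match and Fat3 an E-box match.

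Sequence played no part in the choice of the regions. Motifs were searched on both strands in the 201 bases centred on the summit of the strongest peak. The GATA motif (AGATAAG or AGATAAC) was present in 461 of the 1706 intronic gained regions (27.0%, 95% Wilson interval 25.0% to 29.2%), against 46 of 1614 intronic lost regions (2.85%, 2.14% to 3.78%). The difference was 24.2 percentage points (Newcombe interval 21.9 to 26.4). The share was 7.35% in intronic regions called in all 4 libraries and 6.81% in all union regions. Intergenic gained regions had 31.2%, a difference of -4.18 points (intronic minus intergenic, interval -7.21 to -1.13). These intervals cover counting error only, and regions of the same genome are not replicates. The share depended on the letters and the window. It was 52.5% with AGATAA or TGATAA, when the difference from lost regions was 41.3 points, and 17.8% within 50 bp of the summit.

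The replicate spread could be seen in a share for each library over all of its intronic distal peaks, whether gained or not. The GATA motif was in 18.8% of 4218 such peaks in d4 replicate 1 and 19.1% of 3760 in d4 replicate 2, against 3.58% of 4631 in d2 replicate 1 and 3.38% of 3701 in d2 replicate 2. The mean was 18.9% ± 0.261 at d4 and 3.48% ± 0.146 at d2 (SD, n = 2 each), a difference of 15.5 points. The days did not overlap, and the difference was larger than the spread between replicates, but an exact two-sided permutation test of 2 libraries against 2 cannot go below p = 0.33, which is the value it gave. Intronic regions that were called in a single library, and so were not used by the rule, gave 19.5% (d4 replicate 1) and 17.97% (d4 replicate 2), against 3.62% (d2 replicate 1) and 2.69% (d2 replicate 2). The share in these weaker d4 regions was thus also higher than in either d2 library, with no test beyond that of the libraries. Regions of both d4 libraries and a single d2 library had 8.72% (5.51% to 13.5%).

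**Figure D2:**
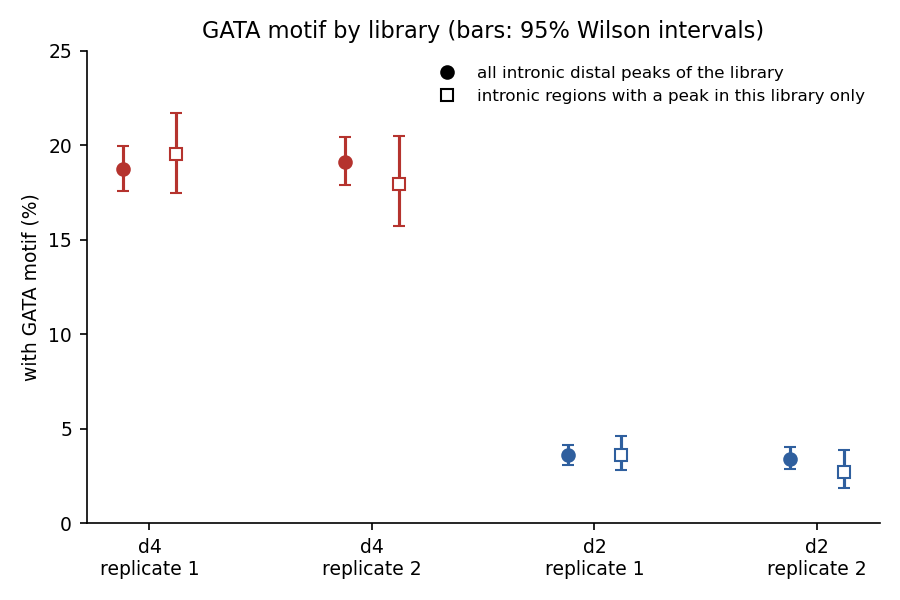
Share of peaks or regions with the GATA motif (y axis, %) in each library (x axis, d4 in red and d2 in blue), over all intronic distal peaks of the library (filled circles) and over intronic regions called in that library alone (open squares), with 95% Wilson intervals. Both d4 libraries lie between 17.97% and 19.5% and both d2 libraries between 2.69% and 3.62%.

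The share of regions with the core letters varied with the bases on either side. Among the 16 forms of GATAA with a base on each side, AGATAAG was the most frequent in intronic gained regions, in 20.8% of them, against 1.98% of lost regions. TGATAAG followed, in 11.5% of gained and 1.36% of lost regions. AGATAAA was in 10.7% and 2.35%, and AGATAAC in 7.503% and 0.867%. With T after the core the gap was smaller, as AGATAAT was in 3.93% of gained and 1.86% of lost regions. With G before the core there was little between the classes. GGATAAA was in 2.64% of gained regions (interval 1.98% to 3.51%) and 2.42% of lost regions (1.77% to 3.29%), and GGATAAG in 2.64% and 1.73%. Forms with C before the core were rare in both classes, at most 0.821% of gained regions for CGATAAG. The gap between gained and lost regions was thus widest in forms with A or T before the core.

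By the median, GATA matches lay nearer to the summit in gained than in lost regions. The 516 matches in intronic gained regions were a median of 37 bp from the summit, and 25.2% of them lay within 20 bp and 11.2% between 80 and 100 bp. In lost regions the 47 matches had a median of 49 bp. The share within 20 bp was similar in the other classes, at 25.5% in lost regions and 26.2% in intronic regions called in all 4 libraries. Most regions with the motif held a single match (408), 51 held 2 and 2 held 3 or more. The median fold enrichment in d4 replicates 1 and 2 was 8.05 and 8.00 for regions with the motif, against 7.77 and 7.47 for regions without it. Across 5 equal groups ordered by the lower fold enrichment, the share with GATA was 19.9% in the weakest, then 27.9%, 25.2% and 28.2%, and 34.0% in the strongest. This is a description across regions, and was not tested.

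The E-box-GATA composite consists of CTG, a gap of 8 bases and AGATAA. It was in 57 intronic gained regions (3.34%, interval 2.59% to 4.30%), against 5 lost regions (0.310%, 0.132% to 0.723%) and 0.648% of all union regions. The intergenic gained regions had 3.73%. The composite contains AGATAA and so overlaps the GATA motif. To see whether the gap of 8 stood apart, CTG was counted at every gap from 0 to 20 bases before AGATAA. In gained regions 57 held the gap of 8, 40 the gap of 7 and 37 the gap of 0, and every other gap had between 12 and 34. Lost regions had at most 6 at any gap. Sites are shown on the motif strand, with CTG and AGATAA in capitals, so that the gap letters and the flanks can be compared. They are those of the 5 strongest regions with the composite, of the haem enzyme gene Alas2 and of Flt1. The 5 were ranked without the chromosome left out of the choice of stretches above. Alas2 was picked after its value was seen, because it encodes the erythroid enzyme that starts haem synthesis. The positions are chr19:51910855-51910875 (AC122763.1, minus strand), chr12:117947234-117947254 (Dnah11, minus), chrX:144987092-144987112 (Rtl4, minus), chr9:75960019-75960039 (Gm26903, minus), chr11:47777392-47777412 (Sgcd, plus), chrX:150549852-150549872 (Alas2, minus) and chr5:147658072-147658092 (Flt1, plus).
AC122763.1 site: gcCTGctcagaagAGATAAgt
Dnah11 site: gtCTGttctgatgAGATAAgg
Rtl4 site: atCTGttcatcctAGATAAgg
Gm26903 site: atCTGcatttcaaAGATAAgg
Sgcd site: ccCTGataccctgAGATAAga
Alas2 site: gcCTGcagaccatAGATAAag
Flt1 site: tcCTGccggagtgAGATAAga
Across the 57 sites the base after AGATAA was G in 27, A in 14, C in 12 and T in 4. The base before CTG was rarely A (3 sites). The Alas2 region, in intron 1, had fold enrichments of 9.37 and 10.9 in d4 replicates 1 and 2, and the Dnah11 region, in a dynein gene, 11.2 and 13.2.

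**Figure D3:**
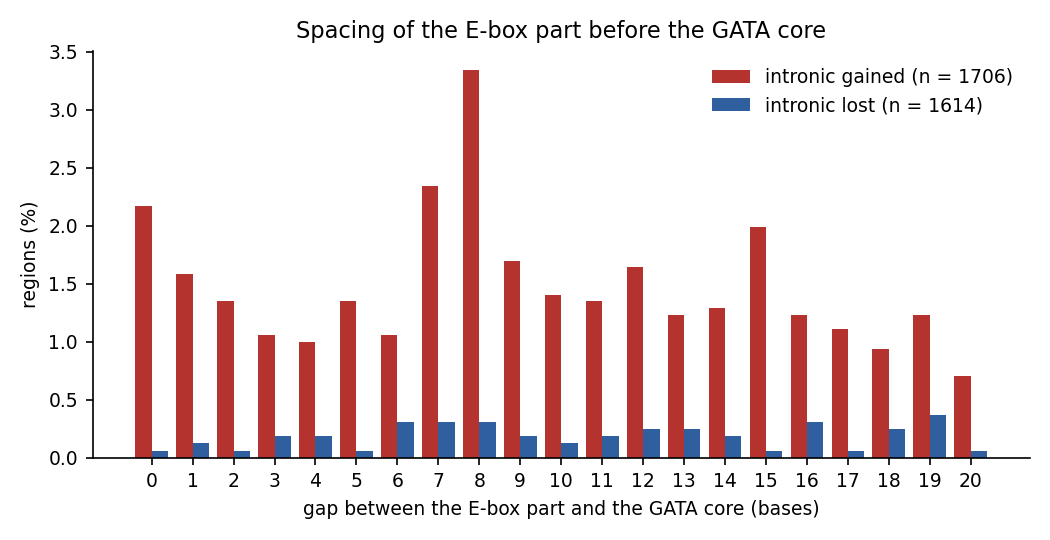
Share of regions (y axis, %) that hold the E-box part at each gap before the GATA core (x axis, bases), for intronic gained (red, 1706) and intronic lost regions (blue, 1614). The bar at 8 bases is the highest in gained regions, at 3.34%, followed by 7 bases at 2.34% and 0 bases at 2.17%.

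Other motifs were also unevenly shared. The TEAD motif (GGAATGT) was in 10.4% of intronic gained regions (9.02% to 11.9%), against 2.79% of lost regions (2.09% to 3.71%) and 3.75% of all union regions. AP-1 (TGAGTCA) was in 9.38% (8.09% to 10.9%), against 4.46% of lost regions (3.56% to 5.58%) and 4.73% of all. The forkhead motif (TGTTTAC) was in 7.68% and 3.10%, and in 3.14% of all union regions. The ETS motif (ACAGGAAG or ACCGGAAG) was in 6.98% and 3.04%, and in 4.71% of all. By library, over all intronic distal peaks, TEAD was in 8.16% and 7.58% at d4, against 3.17% and 3.00% at d2, and AP-1 in 8.27% and 7.87% at d4, against 4.75% and 4.86% at d2. The days did not overlap for either motif, and the exact permutation p was again 0.33, the smallest possible. The plain E-box (CAGCTG) was in 21.6% of gained and 21.4% of lost regions, a difference of 0.254 points (interval -2.55 to 3.05), and in 16.7% of all union regions.

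Motifs of pluripotency factors had lower shares in gained than in lost regions, but the SOX share was near that of all union regions. The POU motif (ATGCAAAT), bound by OCT4, was in 0.586% of intronic gained regions (0.319% to 1.08%), against 5.64% of lost regions (4.61% to 6.87%), a difference of -5.05 points (gained minus lost, interval -6.31 to -3.92), and 1.89% of all union regions. The SOX motif (CCATTGT) was in 2.29% of gained (1.68% to 3.11%) and 5.70% of lost regions, and in 2.68% of all, which lies within the interval of the gained regions. The GC-rich motif of KLF and SP factors (GGGCGGG) was in 3.17% and 7.68%, in 19.1% of intronic regions called in all 4 libraries and in 20.1% of all union regions. The RBPJ motif of Notch signalling (GTGGGAA) was in 5.86% and 4.89%, with overlapping intervals (4.84% to 7.08% and 3.94% to 6.06%), and in 4.62% of all. The T-box motif (AGGTGTGA) was in 1.41% and 1.73%, also with overlapping intervals, and in 0.890% of all. The insulator motif of CTCF was in 1.52% and 2.73%, and in 3.08% of all. For every motif named in this and the preceding paragraph, the interval of the difference between intronic and intergenic gained regions included 0.

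**Figure D4:**
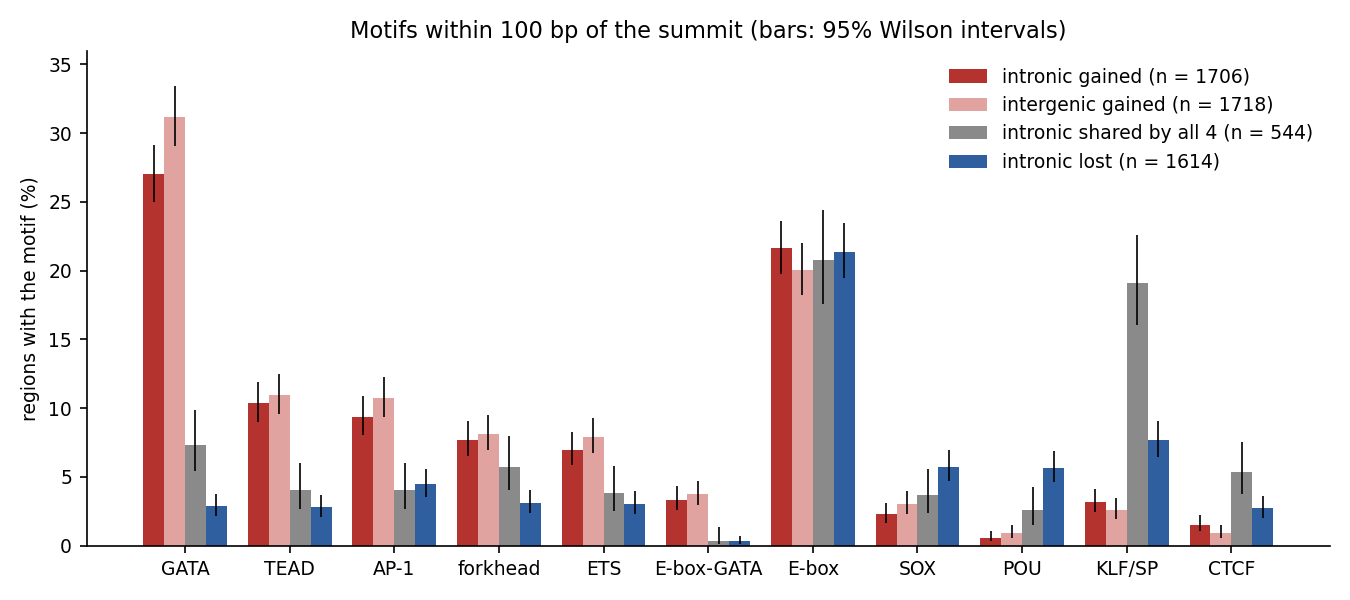
Share of regions (y axis, %) with each motif within 100 bp of the summit, for intronic gained (dark red), intergenic gained (light red), intronic regions called in all 4 libraries (grey) and intronic lost regions (blue), with 95% Wilson intervals. The GATA bar stands at 27.0% in intronic gained and 2.85% in intronic lost regions, while the E-box bars are level at 21.6% and 21.4%.

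Of the intronic gained regions, 874 (51.2%) held at least 1 of the GATA, E-box-GATA, ETS, TEAD, AP-1 and forkhead motifs, against 247 lost regions (15.3%) and 20.4% of all union regions. The others held none of these letters in the window. Counting 5 kinds of motif, without the composite, 699 regions held 1 kind, 151 held 2, 14 held 3 and 1, in Sgip1, held all 5. The AP-1 motif was in 5.21% of the 461 regions with GATA (3.52% to 7.63%) and in 10.9% of the 1245 without (9.31% to 12.8%), and these intervals did not overlap. TEAD, with 9.33% and 10.8%, and ETS, with 7.59% and 6.75%, had overlapping intervals in regions with and without GATA.

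Width, place and base composition are given as medians. The median width was 280 bp in gained and 256.5 bp in lost regions, and the median distance to the nearest start 12.8 kb and 12.7 kb. The GC content of the 201-base window had a median of 50.7% and 52.7%. The summit lay in soft-masked repeats in 5.10% of gained and 8.49% of lost regions. In protein-coding hosts, 464 of 1450 gained regions (32.0%, 29.6% to 34.4%) were in the first intron of a transcript with several, against 30.0% of lost regions and 36.8% of regions called in all 4 libraries. Another region of the same class lay within 50 kb of 25.6% of gained regions, against 19.95% of lost regions.

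Of the 1706 regions, 1471 (86.2%) lay in protein-coding genes. They lay in 1147 genes, 5.23% of the 21938 coding genes and 28.4% of the 4034 coding genes with any intronic distal region. A single region was held by 881 of these genes, and 266 held more. Lost intronic regions lay in 1122 coding genes, and 345 genes held both kinds, 30.1% of the hosts of gained and 30.7% of the hosts of lost regions. The host promoters were mostly open throughout. Of the 1147 hosts, 753 (65.6%, 62.9% to 68.3%) had a promoter peak in all 4 libraries. This compares with 61.9% of hosts of lost regions, 58.9% (57.4% to 60.5%) of hosts of any intronic distal region and 46.1% of all coding genes. A further 13 (1.13%) had a promoter peak that was itself gained, and 139 (12.1%) had no promoter peak in any library. The share of hosts with a promoter peak in all 4 was 49.9% when only the top 15000 peaks per library were used, and 46.7% at −log10 q of at least 10. No share over all coding genes was computed at these settings.

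Long genes held the most. Ptprn2, which encodes a phosphatase-like protein of dense-core vesicles, held 10 gained and 6 lost regions in 791 kb. Its gained regions had fold enrichments of 5.00 to 11.2 in d4 replicate 1 and 5.87 to 12.3 in d4 replicate 2, and none held a GATA match. Usp29, an imprinted ubiquitin peptidase gene, held 7 gained and 1 lost region in 237 kb, the strongest (chr7:6777244-6778102) at 13.2 and 12.8 with a GATA match. Macrod2, which encodes an ADP-ribose hydrolase, held 7 gained and 6 lost regions. The synaptic genes Syt1 and Cntnap2 held 6 gained and 1 lost, and 5 gained and no lost region, and 3 and 2 of their gained regions held GATA. Tenm4, a teneurin gene, held 6 gained and 2 lost. The model Gm20388, with 11 gained and 17 lost regions, spans 4435 kb and other genes, among them Zfpm1 and Cbfa2t3, so its count is shared with them. Over all coding genes there were 0.142 gained and 0.138 lost intronic regions per 100 kb. The genes above were picked for their counts. Gained regions per 100 kb were 2.96 in Usp29, 1.26 in Ptprn2, 1.17 in Syt1 and 0.811 in Tenm4. They were 0.350 in Macrod2, 0.248 in Gm20388 and 0.223 in Cntnap2. Shorter hosts could be denser, such as Dact3 with 2 gained regions in 12.1 kb, or 16.5 per 100 kb.

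Genes of the endothelium, heart and blood were among the hosts. The lists below were drawn up from textbook knowledge with results on these data known, and no list was tested. Of 65 endothelial genes 13 hosted a gained region (20%) and 11 a lost one (16.9%), beside 5.23% and 5.11% over all coding genes. Several of these hosts are in the paper's own set of regions opened at d4, which was called from these same libraries. They include Flt1, Notch1, Sptbn1, Arhgap31, Adgrf5, Calcrl, Erg and Tspan18. Vav3 and Lcp1 of the haematopoietic list and Col4a1, Hapln1 and Nid1 of the matrix list are in it too. The shares of gained hosts are thus no independent support. Their median length was 29.6 kb, against 17.4 kb over all coding genes. The whole list held 15 gained and 12 lost regions, 0.381 and 0.305 per 100 kb. Hosts of gained regions, beside Flt1 and Notch1, included Ptprb, which encodes the endothelial phosphatase VE-PTP, and Sptbn1, with 2 regions. The Ptprb regions had 8.16 and 6.78 in one intron and 10.7 and 13.2 in another. Arhgap31, a GTPase-activating protein gene, had 13.2 and 11.2, and Mef2c, a transcription factor gene, 9.32 and 9.20. Adgrf5, an adhesion receptor gene, had 9.40 and 7.56 with GATA and forkhead matches, and Calcrl, the receptor of adrenomedullin, 8.10 and 7.36. Erg, an ETS factor gene, had 6.89 and 7.65, and Ece1, which encodes an endothelin-converting enzyme, 6.58 and 6.69 with the composite. Tspan18 had 5.92 and 8.52. Arhgap31, Mef2c and Tspan18 also held 1 lost region each. Other endothelial genes held lost regions and no gained one, namely Jag1 with 2 and Cyyr1, Efnb2, Elk3, Ets1, Fli1, Prex2 and Tek with 1 each.

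At the other 4 genes with a proposed element the rule found no member. Kdr, which encodes VEGF receptor 2, had a gained region (chr5:75962259-75962568) with fold enrichments of 7.27 and 11.03 and a GATA match, but it overlapped an exon. Eng, which encodes a TGF-beta co-receptor, had 2 intronic regions, each in a single d4 library, at 5.62 in replicate 1 and 7.85 in replicate 2. Cdh5, which encodes VE-cadherin, had a peak of 6.14 within its proposed element in d4 replicate 1 only, and this peak was classed as promoter here because an annotated start lay 244 bp away. Pecam1, an adhesion gene, had an intronic region in d4 replicate 2 (5.98) and d2 replicate 1 (5.34) and another in d2 replicate 2 alone, and a promoter peak in d4 replicate 1 alone (5.94).

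Of 44 cardiac and cardiopharyngeal genes 10 hosted a gained region (22.7%), and 3 hosted a lost one (6.82%), beside 5.23% and 5.11% over all coding genes. The list held 13 gained and 3 lost regions. Ryr2, the calcium release channel of heart muscle, held 3 gained regions, of which 2 had a GATA and 2 a TEAD match. They had 7.78 and 10.1, 7.59 and 12.1, and 8.90 and 9.46 in d4 replicates 1 and 2. Fgf10, a growth factor gene of the second heart field, held 2 gained regions, at 10.6 and 7.37 and at 11.9 and 14.3. Gata6 had 9.40 and 12.3, with GATA and ETS matches, and Zfpm2, which encodes the GATA cofactor FOG2, 9.53 and 8.73 with GATA. Tbx5, a T-box factor gene, had 7.35 and 7.97 with GATA, and Meis2, a homeobox gene, 10.8 and 9.56 with TEAD. The exchanger gene Slc8a1 had 8.72 and 8.45, Pdlim5 6.70 and 6.67, and Ldb3 5.38 and 6.01, with no GATA match in any of these 3.

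Haematopoietic genes hosted gained regions in 8 of 29 (27.6%) and lost regions in 5 (17.2%), beside 5.23% and 5.11% over all coding genes. Their median length was 55.1 kb, against 17.4 kb over all coding genes. The list held 10 gained and 7 lost regions. Dock2 held 3 lost regions and Myb and Ptprc 1 each, with no gained region at these genes. Runx1, a factor needed for the first blood stem cells, held 2, at 9.17 and 8.96 (chr16:92778016-92778538) and at 5.43 and 5.96 (chr16:92822242-92822509), neither with a GATA match. Meis1 had 10.0 and 15.0 with a GATA match. Vav3 held 2 regions with 7.79 and 7.23, and 7.76 and 7.51, the second with GATA and the composite. Vav1, Cd44, Lcp1, Cbfa2t3 and Zfpm1, which encodes the GATA1 cofactor FOG1, held a region each, with lower fold enrichments of 8.74, 7.78, 7.30, 6.65 and 4.84.

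Other lists are given by counts. Extracellular matrix and integrin genes hosted 10 gained regions in 8 of 46 genes (17.4%), and 11 lost regions in 9 (19.6%), in part other genes. Over all coding genes the shares were 5.23% and 5.11%. The median length of the matrix genes was 113 kb. Per 100 kb they held 0.160 gained and 0.176 lost regions, beside 0.142 and 0.138 over all coding genes. Col4a1 and Itga1, which encode a basement membrane collagen and an integrin chain, held 2 gained each, and Hapln1, Nid1, Fbn1, Has2, Col4a2 and Hspg2 held 1 each. VEGF, Notch, BMP and activin signalling genes hosted 10 gained regions in 8 of 64 genes (12.5%), and 13 lost in 8 (12.5%), in part other genes. Per 100 kb the signalling list held 0.215 gained and 0.280 lost, at a median gene length of 39.5 kb. Acvr1 and the Notch coactivator gene Maml2 held 2 gained each. Early mesoderm and mesenchyme genes hosted 3 gained regions in 2 of 28 genes, and 4 lost in 3. Of these, Zeb2 held 2 gained regions, the stronger at 14.8 and 13.7, and Cdh2 1. Neural genes hosted 16 gained regions in 8 of 30 genes, and 19 lost regions in 8, in part other genes. Per 100 kb the neural list held 0.114 gained and 0.136 lost, beside 0.142 and 0.138 over all coding genes. The neural genes had a median length of 86.7 kb. Their hosts included Cntnap2 with 5 and Opcml, Lrp1b, Dcc and Nrxn3 with 2 gained each. Endoderm genes hosted 7 gained regions in 4 of 26 genes, and 1 lost region. Cubn, an endocytic receptor gene, held 4 gained regions between 7.82 and 10.3 in d4 replicate 1 and between 7.83 and 13.6 in d4 replicate 2. Lrp2, Ttr and Gata6, which is on the cardiac list too, held 1 each. Of the trophoblast list only Plac1 hosted any, 3 gained. Per 100 kb the endoderm list held 0.639 gained and 0.0913 lost regions, beside 0.142 and 0.138 over all coding genes. Of its 7 gained regions, 4 were in Cubn. The part of other cell types in the culture was not tested.

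Pluripotency genes hosted 1 gained region, at Trim71, in 40 genes, and 5 lost regions in 5 genes. The Trim71 region had 8.68 and 10.9 with GATA and AP-1 matches. Of the 28 ubiquitously expressed genes none had an intronic distal region of any kind, and their median length was 9.30 kb. Over all 21938 coding genes the share of hosts was 5.23%, at a median length of 17.4 kb.

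**Figure D5:**
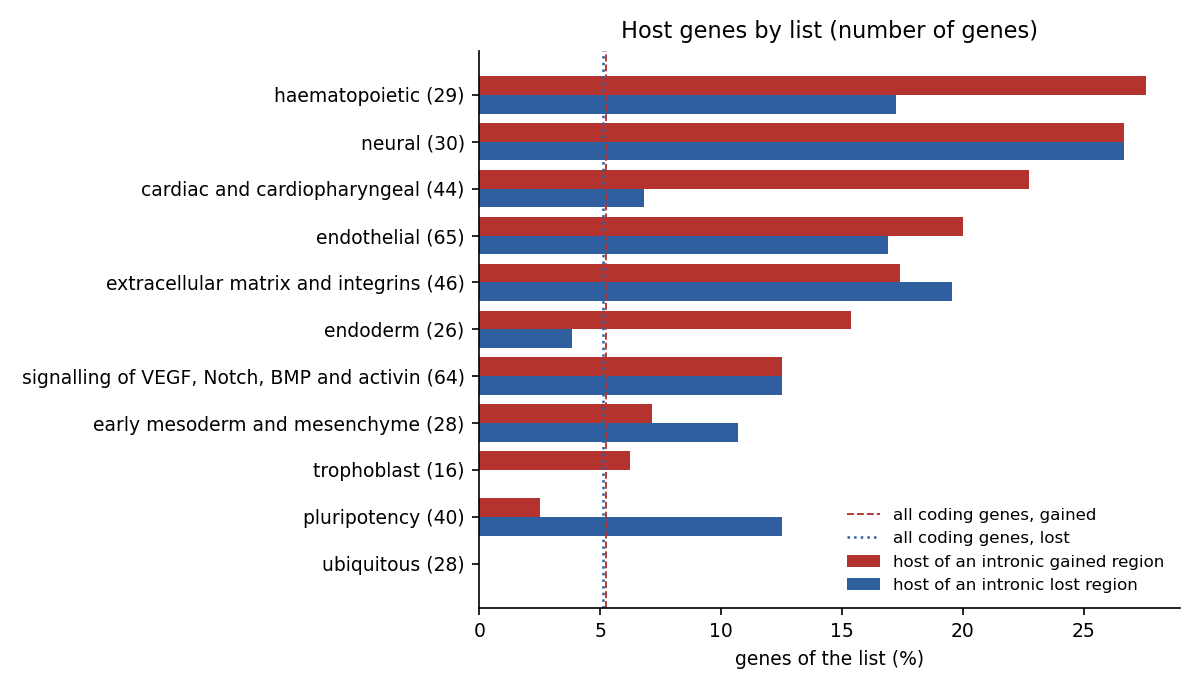
Share of the genes of each list described here (x axis, %) that hosted an intronic gained region (red) and an intronic lost region (blue), with the shares over all coding genes as a dashed and a dotted line (5.23% and 5.11%). Cardiac genes stand at 22.7% and 6.82%, and pluripotency genes at 2.50% and 12.5%.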

How the data were processed

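ATAC-seq peak lists of ES-E14TG2a cells were used, 2 from d4 and 2 from d2, grouped by the labels. The study's methods name FastQC, cutadapt, Bowtie2 (mm10) and MACS2. The authors discarded mitochondrial, duplicated and multi-mapping reads, called peaks in every library on its own and dropped blacklisted ones. The deposited lists give, for each peak, a score (not used), the fold enrichment, a ratio of pileup to local background computed by the authors' caller, the −log10 p-value and −log10 q-value of the authors' Poisson test, and the summit position, an offset from the peak start recorded by the authors. Read totals were not part of these lists. Summit pileup and background were solved from the fold enrichment and the −log10 p-value, and gave whole pileups in 100% of peaks (to within 0.01 in −log10 p).

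Peaks were merged at 1 bp overlap and annotated with GENCODE mouse release 21 on GRCm38.p6, the build of mm10, with which all peak positions fitted. Sequence was read from RefSeq's GRCm38.p6. The members, the gene lists, the motifs and the naming rule were set with earlier results of these data known. Genes named were the study's 6 element genes, coding hosts with at least 5 members (at most 20 genes), up to 10 genes of each list and the 10 strongest members. Some items that the rule named are not reported here. A host gene is the coding gene in whose body a region lies. Shares carry 95% Wilson intervals, differences Newcombe intervals. No p-value was computed between regions, and no test was run on lists. Alternatives were q limits of 5 or 10 on the −log10 scale, only the top 15000 peaks, merging within 500 bp, 50% reciprocal overlap, distal regions beyond 2500 bp, coding gene bodies only, motif windows of 50 and 200 bp, other GATA letters and leaving out each library. Code was tested on simulated data with known answers. Python 3.11.15, pandas 2.3.3, scipy 1.17.1 and pysam 0.24.0 were used.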

Additional observations from a re-analysis of the deposited data

How the results depend on the processing

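There were 1706 intronic gained regions as reported, 772 at a −log10 q limit of 10 and 1026 from only the top 15000 peaks per library. The gained share of intronic distal regions, 17.5% as reported, was 18.5% at a −log10 q limit of 5, 18.7% at 10, 21.8% from the top 15000 peaks and 15.3% with 50% reciprocal overlap. The GATA share of gained regions, 27.0% as reported, was 17.8% within 50 bp of the summit, 35.8% within 200 bp, 37.5% with AGATAA alone and 52.5% with AGATAA or TGATAA, and its difference from lost regions, 24.2 points as reported, was 16.3, 28.9, 30.5 and 41.3 in the same order. Leaving out each library gave 1783 to 3074 gained regions, 20.3% to 35.0% of intronic distal regions, GATA shares of 23.5% to 26.3%, differences of 20.7 to 23.1 points, and differences between d4 and d2 libraries of 15.3 to 15.6 points. With a library left out, a peak in the remaining library of that day sufficed. No result changed sign in these alternatives. With the replicate block, that is, with same-numbered libraries paired, the difference between d4 and d2 was the same 15.5 points and the exact permutation p was 0.5, the smallest that 2 pairs allow. The labels do not say that a number marks a shared experiment. The other descriptions kept their values in 79 of 88 cases. For shares the limit was the counting interval. For the median lower fold enrichment it was the SD between the medians of both d4 libraries. Low pileups and 2 libraries per day limit the calls, and d2 regions under the threshold were not measured.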
